A study of Canis lupus familiaris with 33 samples.

Results

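Chromosome 36 of the dog carried 286 of the 30951 genes in the deposited count table, and 232 of these had at least 2 distinct exons and spanned less than 500 kb. These 232 multi-exon genes, called the members here, are described below. Another 52 genes of the chromosome had a single exon, and 2 multi-exon genes were left out by their span. The chromosome was selected on measured values, the shifts of its genes in tumours relative to controls of this same series. Tumour and control values of the members are therefore given as a description, and their adjusted p-values support nothing further. The 2 genes just outside the span limit measured 611.3 kb and 537.6 kb, and the 2 members closest to it from below measured 406.3 kb and 393.3 kb. Their log2 fold changes in fresh-frozen tumour against control were -1.88 and -0.58 outside the limit, and 0.38 and 0.39 inside it.

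RNA had been sequenced from brain tissue of 25 dogs in 33 libraries, to compare canine oligodendroglioma with brain described as healthy and to ask how well archived blocks serve for this. Formalin-fixed paraffin-embedded (FFPE) tissue came from 11 tumours and 10 controls, and fresh-frozen tissue from 6 tumours and 6 controls. The FFPE tumours were of 6 French Bulldogs, 4 Boxers and 1 Pomerian (spelled as labelled), 9 of grade III and 2 of grade II. They were aged 4.7 to 12 years in the 9 dogs with an age on the FFPE label. Tumour dog 60461 has an age, 8.8 years, on its fresh-frozen label only. The FFPE controls were of 5 French Bulldogs, 4 Boxers and 1 Bolonka Swetna, aged 2 to 8 years in the 5 dogs with a stated age. Fresh-frozen tumours came from 3 French Bulldogs, 1 Border Terrier, 1 Boxer and 1 Pomerian, 5 of grade III and 1 of grade II, aged 4.7 to 10 years where stated. Fresh-frozen controls came from 2 French Bulldogs and 1 each of Hovawart, Mongrel, Berner sennenhund and Bolonka Swetna, aged 2.8 to 10.2 years where stated. The labels name no treatment, and all tissue was taken at necropsy. In 8 dogs, 5 with a tumour and 3 controls, both kinds of tissue were sequenced, so the 2 preservations share animals.

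Oligodendroglioma is a glial tumour that in dogs is frequent in short-nosed breeds such as the Boxer and the French Bulldog. Gain or loss of whole chromosomes or arms is common in gliomas, and a change in the copies of a chromosome can move the RNA of many of its genes together. Dog chromosome 36 corresponds to part of the long arm of human chromosome 2. The genes carry Ensembl identifiers, and a RefSeq table paired 0 of these with a name, so members are described by position, exons and span. For the same reason the labelled tissue could not be set against marker genes. In these bulk samples, fewer cells of a type and less RNA per cell cannot be told apart.

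Total counts ran from 406406 to 32584840 in FFPE and from 9765907 to 26726025 in fresh-frozen libraries, and no 2 libraries of a group were alike within sampling noise (chi-square per degree of freedom 17.2 to 493.6 over 130 pairs). The fresh-frozen libraries of tumour dogs 60127 and 60461 and of control dogs 60126 and 60462 stood apart from the other 8. The separation lay on the second principal component of the remaining chromosomes, which held 23.4% of the variance. All 4 dogs had an FFPE library too, and the main values are also given without them.

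The members lay between 311587 and 30808311 of chromosome 36 (CanFam3.1), 108 on the forward and 124 on the reverse strand. They had a median of 6 exons and at most 197. Exonic lengths ran from 87 to 88447 bp with a median of 1835 bp. In 19 members the annotation overlapped another gene on the same strand, and in 41 a gene on the other strand. Fragments had been counted by strand, so opposite-strand neighbours were kept apart, whereas the 19 same-strand overlaps leave counts uncertain. The filter on low counts passed 109 members in FFPE and 123 in fresh-frozen tissue. All 109 that passed in FFPE also passed in fresh-frozen tissue, and 109 others passed in neither, with a median of 21 counts over all libraries together against 13943 in those tested in both. The list thus joins abundant genes with a median of 13 exons to hardly detected ones with a median of 3. No count in any library was found for 2 members, which allows up to 0.00831 counts per 1 M counts (CPM) over all libraries, counting error only.

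A library's chromosome 36 shift was taken as the median over its tested members of log2 CPM (prior count 2) less a reference halfway between the tumour and the control mean of the gene, with the same median over all tested genes then taken off. A shift of 0 means that the members stood, against this halfway reference, where genes in general stood in that library. It is not the level of controls, and the reference itself puts the tumour and control means on nearly mirrored sides of 0. In FFPE tumours the shift ran from -0.56 to 0.65 with a median of -0.09 and a mean of -0.08 ± 0.38 (SD, n = 11). In FFPE controls it ran from -0.41 to 0.56 with a median of 0.09 and a mean of 0.09 ± 0.27 (SD, n = 10). The 2 groups overlapped widely, with 3 tumours below every control and 1 above, and the difference of means, -0.17, was smaller than either SD. In fresh-frozen tumours the shift ran from -0.48 to 0.35 with a median of -0.16 and a mean of -0.12 ± 0.29 (SD, n = 6). In fresh-frozen controls it ran from -0.07 to 0.41 with a median of 0.03 and a mean of 0.13 ± 0.21 (SD, n = 6). Here 3 of 6 tumours lay below every control and 0 above, and the difference of means was -0.25, again smaller than the SD of the tumours.

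**Figure D1:**
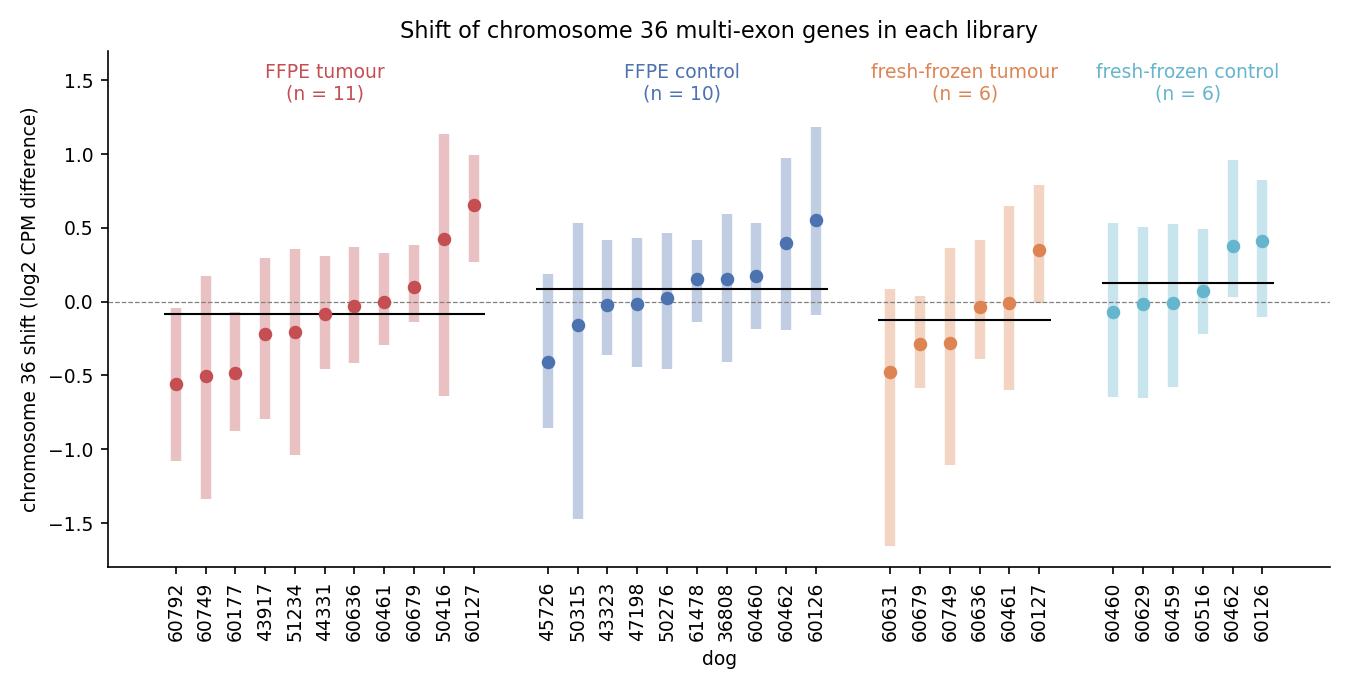
Chromosome 36 shift of each library (points, log2 CPM difference) by dog, in the 4 groups; pale bars are the lower to upper quartile of its tested members and black lines are group means. Tumours reach from -0.56 to 0.65 in FFPE and from -0.48 to 0.35 in fresh-frozen tissue, and control dogs 60126 and 60462 lie above the other controls in both.

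Single tumours moved in opposite directions. In FFPE tissue the lowest tumours were those of dogs 60792 at -0.56, 60749 at -0.50 and 60177 at -0.48, and the highest were 60127 at 0.65 and 50416 at 0.43. In tumour 60127, 87.2% of the tested members stood above 0, against 21.1% in tumour 60792 and 22.9% in tumour 60177. The remaining 6 FFPE tumours lay between -0.22 and 0.10, within the range of the controls. The members of tumour 50416 spread widely (SD 1.33 over members, 64.2% above 0) where those of 60127 moved more evenly (SD 0.67). Tumour 50416 had 3034305 total counts and 60127 had 12501029, and the part of depth in this spread was not tested. Among fresh-frozen tumours, 60631 was lowest at -0.48, 60679 stood at -0.29 and 60749 at -0.28, and 60127 was highest at 0.35. Dogs 60636 and 60461 stayed close to 0 in both preservations, at -0.03 and -0.0026 in FFPE and at -0.03 and -0.01 in fresh-frozen tissue.

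Set against the other chromosomes of the same library, chromosome 36 was an extreme in several animals. Of 39 chromosomes (the autosomes and X, by the same rule on exons and span), it was the highest in tumour 60127 in both preservations and in control 60126 in both. In control 60462 it was the highest in fresh-frozen and ranked 3 from the top in FFPE tissue. At the other end it was the lowest of 39 in fresh-frozen tumour 60679, and ranked 2 from the bottom in FFPE tumours 60792 and 60749 and in fresh-frozen tumour 60631. Controls reached both ends as well, since chromosome 36 was the lowest chromosome of FFPE control 45726 at -0.41 and the highest of FFPE controls 36808 at 0.16 and 60460 at 0.17. Across groups, its tumour minus control difference ranked 1 from the lowest in FFPE and 3 in fresh-frozen tissue. The SD of its shift over controls ranked 3 from the largest in FFPE and 1 in fresh-frozen tissue, while the SD over tumours ranked 4 and 7. Its median rested on few genes, 109 in FFPE and 123 in fresh-frozen tissue. Chromosomes 32 and 29, with 134 and 127 tested genes, had larger FFPE control SDs, whereas chromosome 31, with 108, ranked 16. The part of gene number in these ranks was not tested. The control ranks of chromosome 36 rested in part on the 4 dogs that stood apart. Without them the SD over controls was 0.20 in FFPE and 0.06 in fresh-frozen tissue, ranks 4 and 9, and the SD over tumours ranked 6 and 11. The tumour minus control difference then ranked 1 and 4 from the lowest. Where chromosome 36 was at or near an extreme, chromosome 20 often stood at the opposite end. Chromosome 20 was the lowest in both libraries of 60127 (FFPE -0.64, fresh-frozen -0.44) and 60462 (-0.55, -0.38). So it was in fresh-frozen control 60126 (-0.43). It was the highest in FFPE tumours 60749 (0.84) and 60792 (0.43) and in fresh-frozen tumour 60679 (0.38). Another chromosome held that end in fresh-frozen tumour 60631 and in FFPE controls 60126, 45726, 36808 and 60460.

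The highest control values came from animals whose fresh-frozen libraries stood apart. Control 60126 had shifts of 0.56 in FFPE and 0.41 in fresh-frozen tissue, and control 60462 had 0.40 and 0.38. The next control lay at 0.17 in FFPE and at 0.07 in fresh-frozen tissue. Members with at least 1 count numbered 220 in FFPE and 214 in fresh-frozen tissue of control 60462, and 187 and 167 in tumour 60127. They numbered 160 and 179 in control 60126 and 152 and 178 in tumour 60461. Group medians were 146 members in FFPE tumours, 154.5 in FFPE controls, 162.5 in fresh-frozen tumours and 161.5 in fresh-frozen controls, and the part of detection in the shifts was not tested. Control 60126, the highest control in shift, was thus close to its group median in FFPE tissue. Within the 4 animals, tumour minus control was -0.15 in FFPE and -0.22 in fresh-frozen tissue. Within the rest it was -0.16 and -0.27, close to the values over all libraries. In the remaining fresh-frozen libraries the 4 tumours ran from -0.48 to -0.03 and the 4 controls from -0.07 to 0.07, so that 1 tumour still overlapped the controls.

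To see how far a shift covered the chromosome, the members were divided by start into 6 segments, each of 5 Mb except the last (25 to 30.81 Mb). All 6 segments lay below 0 in FFPE tumours 60792, 60749 and 60177 and in fresh-frozen tumours 60631 and 60679. All 6 lay above 0 in both libraries of tumour 60127, and in fresh-frozen controls 60126 and 60462. The segments were uneven in size of shift. In FFPE tumour 60792, segment 3 (10 to 15 Mb) stood at -1.29 and segment 6 at -0.14. In FFPE tumour 60749, segment 1 (0 to 5 Mb) stood at -1.21 and segment 2 (5 to 10 Mb) at -0.14. Mean tumour minus control shifts were most negative in segments 3 (-0.47) and 1 (-0.43) in FFPE tissue, and in segments 4 (-0.39) and 1 (-0.33) in fresh-frozen tissue. Segment 6 was near 0 in both, at -0.01 and 0.09. The SDs over libraries were 0.63 in tumours and 0.50 in controls for FFPE segment 3, and 0.57 and 0.29 for FFPE segment 1. For fresh-frozen segment 4 they were 0.29 and 0.14, both smaller than the difference, and for fresh-frozen segment 1 they were 0.58 and 0.26.

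**Figure D2:**
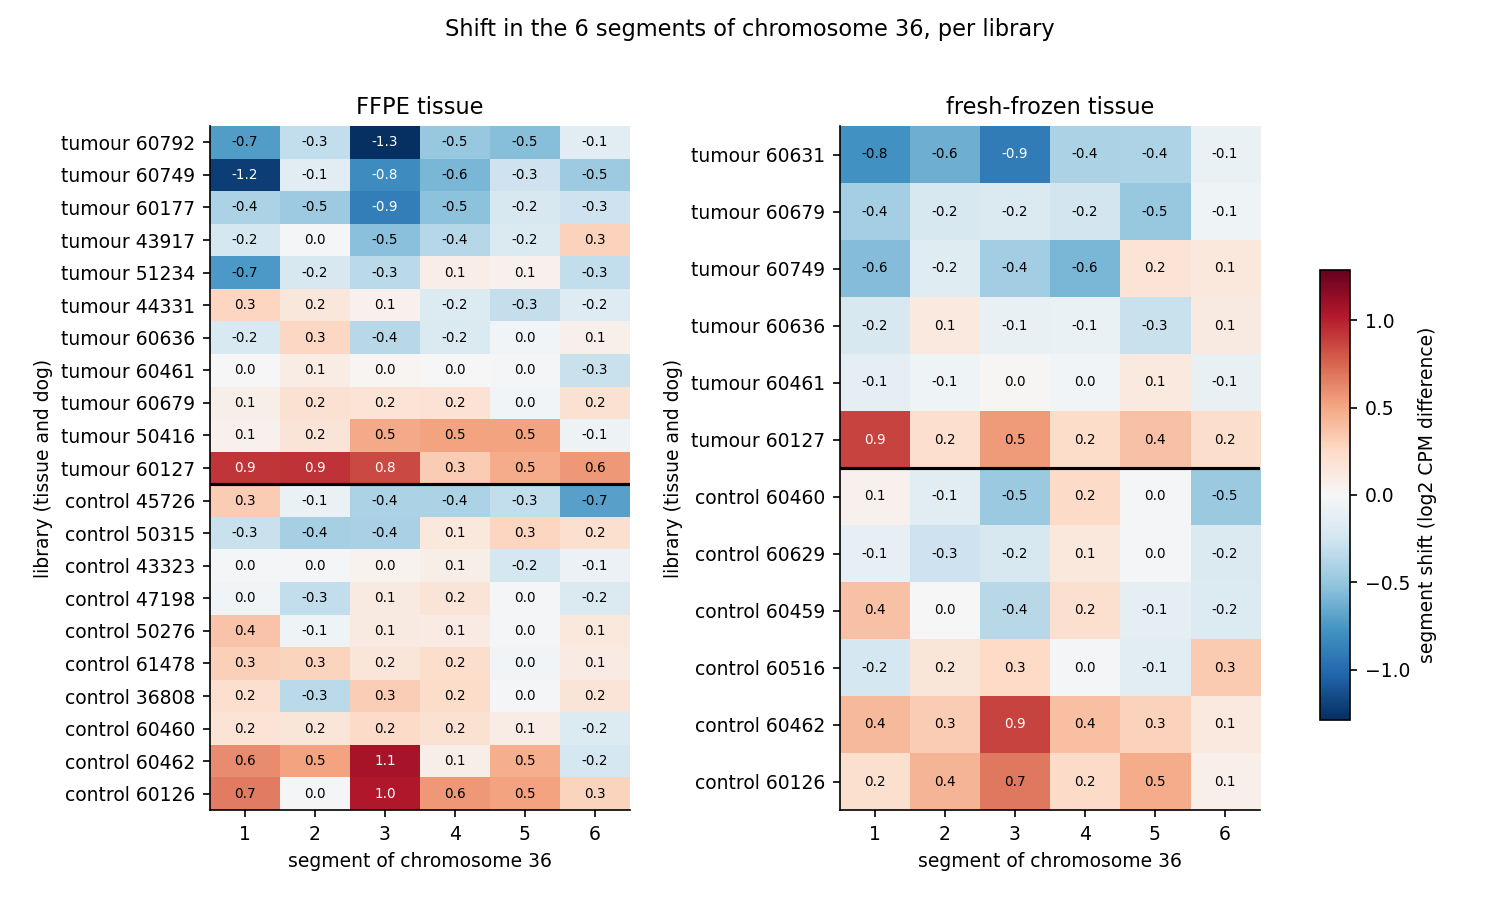
Shift of each of 6 segments of chromosome 36 (columns, numbered from the chromosome's start) in each library (rows, tumours above the black line, controls below), as a log2 CPM difference from blue (below 0) to red (above 0). Tumours 60792 and 60749 in FFPE and 60631 in fresh-frozen tissue are below 0 in all 6 segments, while both libraries of tumour 60127 and the controls 60126 and 60462 are mainly red.

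Whether an animal's shift was repeated in its other library could be read over the 8 dogs with both. Tumour shifts had chosen the chromosome, so this is a description without a test. Tumour 60749 was low in both (-0.50 in FFPE and -0.28 in fresh-frozen tissue), and tumour 60127 (0.65 and 0.35), control 60126 (0.56 and 0.41) and control 60462 (0.40 and 0.38) were high in both. Tumour 60679 (0.10 and -0.29) and control 60460 (0.17 and -0.07) differed in sign. As deviations from the group means, FFPE and fresh-frozen shifts were correlated with r = 0.801 (Pearson) and rho = 0.714 (Spearman) over n = 8 dogs. Without the 2 dogs farthest from the median fresh-frozen shift, 60126 and 60462, r was 0.818 and rho 0.257 (n = 6). The n of 6 counts control 60460, then the only control left. It is its own group mean, so its deviation is fixed in both preservations and tells nothing of the relation. Only the tumours inform these values, and the rho also depends on where the fixed point ranks. Without dog 60127 r was 0.571 (n = 7), so the relation rested in part on that animal. The 3 high animals are among the 4 that stood apart, which leaves 4 dogs, too few for a correlation within the rest.

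**Figure D3:**
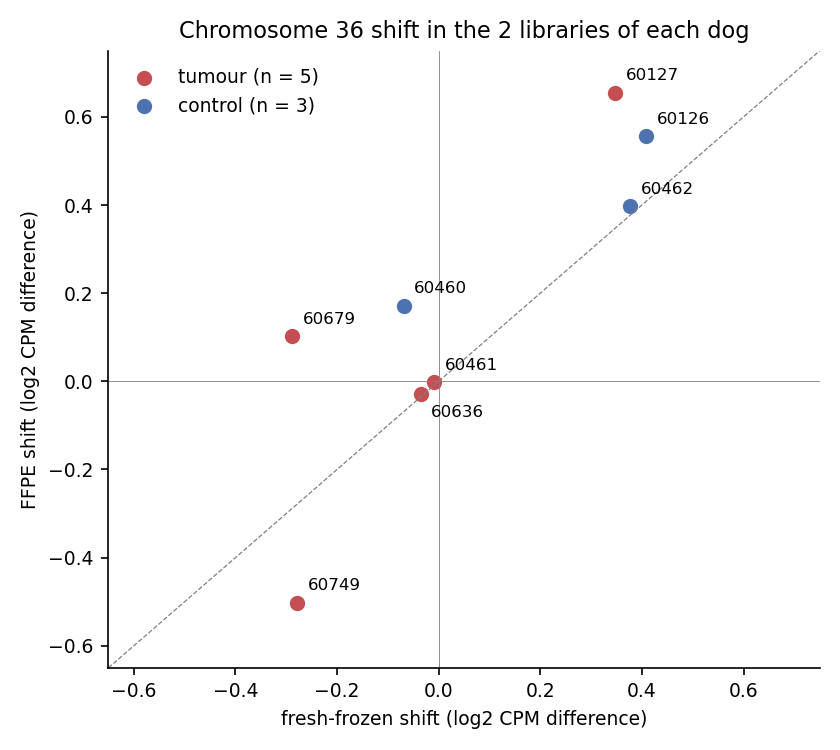
FFPE shift against fresh-frozen shift of chromosome 36 (log2 CPM differences) in the 8 dogs with both libraries, 5 tumours (red) and 3 controls (blue); the dashed line marks equal values. Dogs 60127, 60126 and 60462 lie at the upper right and dog 60749 at the lower left.

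The profile over single members was compared in the same animals, as a description across 109 genes that share a library and its depth and are not independent. Between the 2 libraries of a dog, Spearman's rho of the members' deviations from the group means of these dogs was 0.846 in tumour 60749, 0.756 in tumour 60127 and 0.679 in tumour 60679. It was 0.493 in control 60460, 0.311 in control 60462, 0.208 in tumour 60461, 0.164 in tumour 60636 and -0.007 in control 60126. In 5 of 8 dogs the dog's own other library gave the highest rho among the fresh-frozen libraries of its tissue. That was among 5 libraries for a tumour and 3 for a control, so a control's own library is more easily the highest. Deviations from a mean of 3 controls also sum to 0, which tends to lower values between controls (-0.358 to -0.267 for control 60460). How many dogs would have this by chance was not tested. The 3 highest values were those of tumours, whereas control 60126, high in shift in both libraries, had no such likeness over genes.

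Few members differed between the 2 preservations. In 1 log2 CPM table of the 16 libraries of these 8 dogs, the FFPE shift was lower than the fresh-frozen shift by -0.05 ± 0.15 (SD, n = 8), and it was higher in 3 of 8 dogs (exact sign-flip permutation, two-sided p = 0.352, adjusted over 3 tests of the shift 0.527, 256 patterns). Of 140 members tested with edgeR, 1 was higher in FFPE and 0 were lower at an adjusted p under 0.05, and 20 had an unadjusted p under 0.05. That fit had tissue as a covariate and did not pair the libraries by dog. Over all 17097 genes, 2.81% were called higher and 0.135% lower, and 2963 had an unadjusted p under 0.05. The 1 member, at 20989360 to 21012524 on the reverse strand with 8 exons, differed by 1.02 ± 0.27 on the log2 scale (SE; edgeR adjusted p = 0.0477), close to the threshold. It is described here because it was the single call. With no filter on low counts or a stricter one the count was 0, where 1.52% and 1.21% of all genes were called. With the dog as a block the count of called members was again 1, where 3.83% of all genes were called.

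Breed was another label that the choice of the chromosome had not used. The tumour shifts compared by breed had chosen the chromosome, so this too is a description without a test. Among FFPE tumours the shift averaged -0.09 ± 0.41 in Boxers (SD, n = 4), from -0.56 to 0.43, and -0.20 ± 0.25 in French Bulldogs (SD, n = 6), from -0.50 to 0.10. The ranges overlapped, and the difference of 0.11 was smaller than either SD. Without Boxer tumour 50416 it was -0.06, so its sign rested on 1 animal.

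At the level of single genes, 6 of 109 tested members were higher and 13 lower in FFPE tumours than in FFPE controls (edgeR quasi-likelihood test, Benjamini-Hochberg adjusted p under 0.05 over all genes tested). These are 5.5% and 11.9% of the members tested, where 10.1% of all 13338 genes tested were called higher and 11.1% lower. In fresh-frozen tissue 16 of 123 members were higher and 22 lower, 13% and 17.9%, where 18.3% of all 15057 genes were called higher and 12.2% lower. DESeq2, with its own scaling, called 15 of 122 higher and 32 lower there, where it called 19.4% of all genes higher and 18.3% lower. The members' median log2 fold change was -0.14 in FFPE tissue (0.02 over all genes) and -0.19 in fresh-frozen tissue (0.10 over all genes). Since the shifts that chose the chromosome come from these same libraries, nothing is read from these shares. Without the 4 libraries that stood apart, the fresh-frozen count of 38 became 23 (7 higher, 16 lower), where the shares of all genes became 8.74% higher and 6.42% lower. Without the same dogs the FFPE count of 19 became 24 (8 higher, 16 lower), where 23.8% of all genes were called. With age as a covariate in the 14 FFPE libraries with a stated age, the FFPE count was 0 higher and 1 lower, where 0.379% of all genes were called higher and 0.358% lower. The calls thus fell over the whole table, in a fit with fewer libraries, of which 5 were controls. No fit without age was made on these libraries, so the parts of age and of fewer libraries were not separated. FFPE tumour 60461, with an age on its fresh-frozen label only, was left out of that fit. Age and tumour cannot be fully told apart in these groups.

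Groups without overlap gave a similar picture. In fresh-frozen tissue, 5 members had every tumour above every control and 10 had every tumour below, against 6.35% and 5.13% of all genes tested. Without the 4 libraries that stood apart the counts were 15 above and 22 below, against 15.5% and 12.9% of all genes, with 4 libraries a group. In FFPE tissue no member separated the groups in either direction, where 0.127% and 0.277% of all genes did. The 10 members below included neighbours on the chromosome. At 7399643 to 7454204 (25 exons) the log2 fold change in fresh-frozen tissue was -3.05 ± 0.56 (SE; edgeR adjusted p = 0.00318), and at 7475528 to 7488339 (3 exons) it was -2.76 ± 0.76 (SE; edgeR adjusted p = 0.0175). The member at 7475528 was untested in FFPE tissue. Its mean log2 CPM was -1.90 in fresh-frozen tumours, near the floor, and 0.86 in controls. Its passing of the low-count filter thus rested on the controls, and its direction carries no weight. The member at 13746964 to 13834974 (28 exons), also below and untested in FFPE tissue, had means of -1.33 in tumours and 2.01 in controls. Its direction is read with the same limit. A pair of neighbours were above, at 29345236 to 29442732 (15 exons) with 1.21 ± 0.23 (SE; edgeR adjusted p = 0.00362) and at 29459371 to 29511310 (8 exons) with 3.20 ± 0.65 (SE; edgeR adjusted p = 0.0047). These members were picked by their values, the last of them, ENSCAFG00000014752, through the rule for named members.

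Among the 109 members tested in both preservations, 12 were called in both, 5 higher and 7 lower, and none was called in opposite directions. These 12 were 63.2% of the 19 members called in FFPE and 38.7% of the 31 called in fresh-frozen tissue. Over all 13044 genes tested in both, 1972 were called in the same direction and 1 in opposite directions, and the 1972 were 70.3% of those called in FFPE and 47.9% of those called in fresh-frozen tissue. The comparisons share 5 tumour dogs and 3 control dogs and are not independent. The difference between the tumour effects of the 2 preservations was tested directly as an interaction over all 33 libraries. With edgeR 0 of 126 members passed (0.0% of all 15714 genes), and 4 had an unadjusted p under 0.05, against 575 of all genes. DESeq2 and limma voom also called 0 members, where they called 0.0446% and 0.0127% of all genes.

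**Figure D4:**
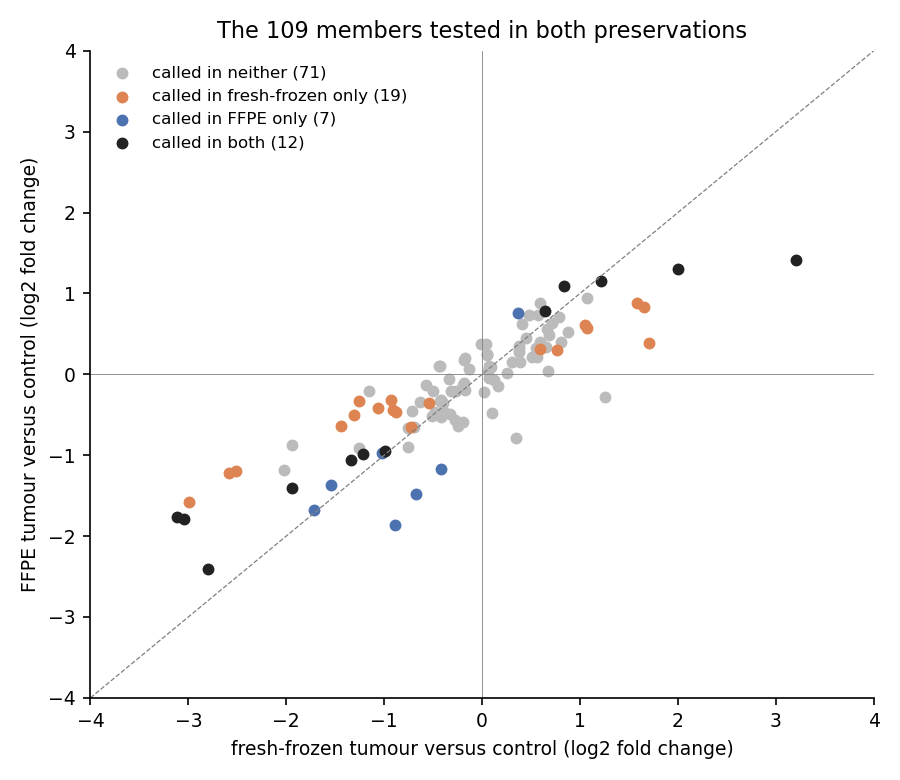
Log2 fold change of tumour against control in FFPE (vertical) and fresh-frozen tissue (horizontal) for the 109 members tested in both; the dashed line marks equal values and colours mark edgeR calls at an adjusted p under 0.05. The 12 members called in both (black) lie in the lower left (7) and upper right (5), and several fresh-frozen values at the lower left exceed the FFPE values in size.

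ENSCAFG00000005058 (11108050 to 11183496, reverse strand, 24 exons, exonic length 5837 bp) had the largest fresh-frozen fall of the 4 members named by rule. Its log2 CPM ran from 4.02 to 7.10 with a median of 4.70 in FFPE tumours, and from 6.59 to 8.27 with a median of 7.06 in FFPE controls. In fresh-frozen tissue it ran from 3.34 to 6.74 with a median of 5.24 in tumours, and from 6.97 to 9.28 with a median of 8.37 in controls. In fresh-frozen tissue every tumour lay below every control, and in FFPE tissue 9 of 11 did. The log2 fold change was -1.76 ± 0.39 in FFPE (SE; edgeR adjusted p = 0.00392) and -3.11 ± 0.52 in fresh-frozen tissue (SE; edgeR adjusted p = 0.00205).

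ENSCAFG00000014193 (24710035 to 24859028, reverse strand, 18 exons, 4821 bp) was less abundant and lower in tumours in both preservations. Log2 CPM ran from -1.61 to 2.73 (median 1.37) in FFPE tumours, the lowest from 0 counts, and from 2.33 to 5.26 (median 3.09) in FFPE controls. In fresh-frozen tumours it ran from -1.77 to 2.18 (median 0.69), and in fresh-frozen controls from 3.1 to 4.38 (median 3.77). All 6 fresh-frozen and 8 of 11 FFPE tumours lay below every control of their preservation. FFPE counts ran from 0 to 74 (median 11) in tumours and from 2 to 477 (median 34.5) in controls. How far its passing of the low-count filter rested on the controls was not tested. The log2 fold change was -2.41 ± 0.57 in FFPE (SE; edgeR adjusted p = 0.006) and -2.80 ± 0.55 in fresh-frozen tissue (SE; edgeR adjusted p = 0.00423).

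ENSCAFG00000014752 (29459371 to 29511310, reverse strand, 8 exons, 1259 bp) was higher in tumours of both preservations. Log2 CPM ran from 1.26 to 3.79 (median 2.40) in FFPE tumours and from -1.61 to 2.78 (median 0.61) in FFPE controls, with counts of 8 to 100 and of 0 to 38. In fresh-frozen tissue it ran from 2.40 to 5.43 (median 3.04) in tumours and from -1.66 to 1.40 (median 0.84) in controls, without overlap. The log2 fold change was 1.41 ± 0.50 in FFPE (SE; edgeR adjusted p = 0.0444) and 3.20 ± 0.65 in fresh-frozen tissue (SE; edgeR adjusted p = 0.0047), and 3 of 11 FFPE tumours exceeded every control. Median FFPE counts were 25 in tumours and 6.5 in controls. How far its passing of the low-count filter in FFPE tissue rested on the tumours was not tested.

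ENSCAFG00000031859 (22090246 to 22101194, reverse strand, 5 exons, 893 bp) was the other member named for a rise, and overlaps 1 gene on the other strand, as do both members named for a fall. Log2 CPM ran from 1.83 to 4.47 (median 3.60) in FFPE tumours and from -1.61 to 3.69 (median 2.01) in FFPE controls. In fresh-frozen tissue it ran from 2.52 to 5.24 (median 4.11) in tumours and from 1.61 to 2.70 (median 2.13) in controls, and 5 of 6 tumours lay above every control. The log2 fold change was 1.30 ± 0.40 in FFPE (SE; edgeR adjusted p = 0.0251) and 2.00 ± 0.39 in fresh-frozen tissue (SE; edgeR adjusted p = 0.00418). The interaction with preservation had an edgeR adjusted p of 1.0 in each of the 4 named members. Without the 4 dogs that stood apart, their log2 fold changes kept their signs. ENSCAFG00000014752 then had 1.30 ± 0.56 in FFPE tissue (SE; edgeR adjusted p = 0.0912), past the threshold no longer, and the other 7 values had edgeR adjusted p-values from 0.00161 to 0.0387.

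**Figure D5:**
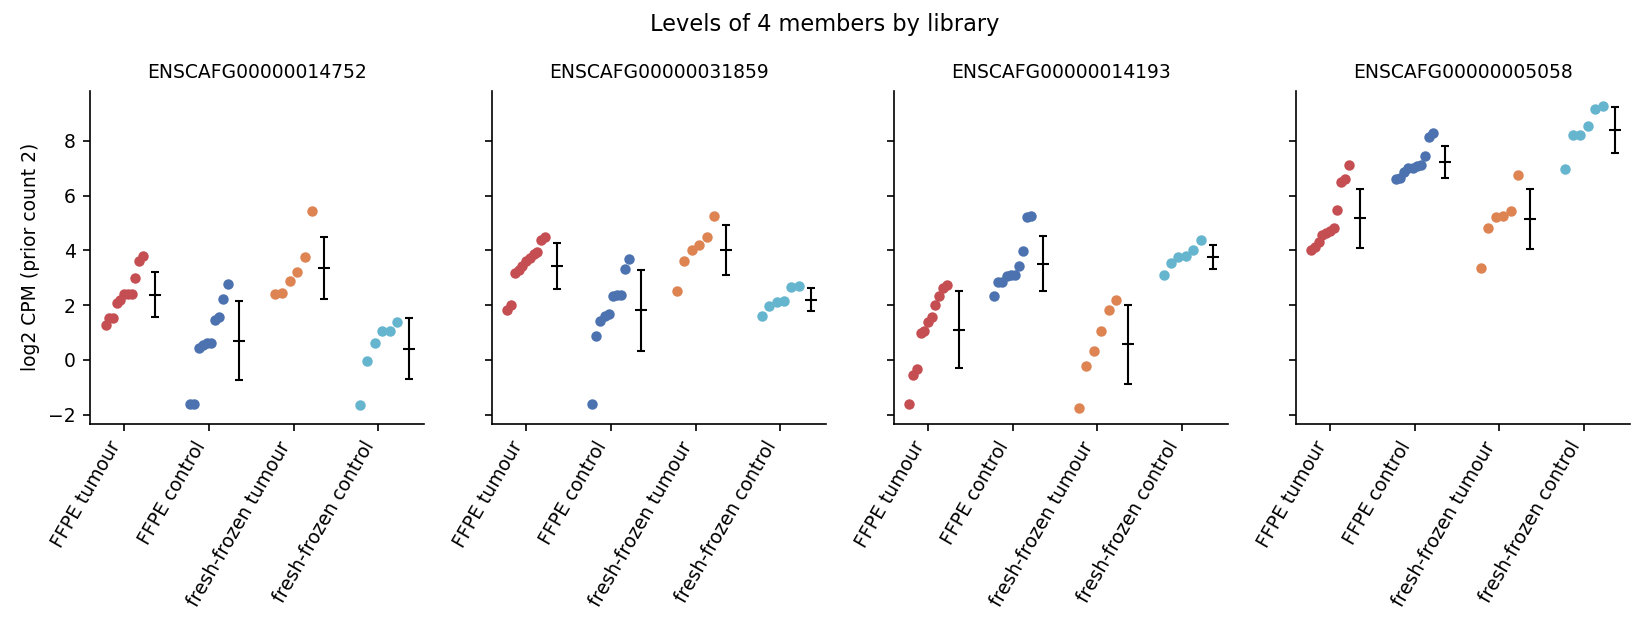
Log2 CPM (prior count 2) of the 4 members named by rule, 1 panel each; points are libraries in order of level within each of the 4 groups, and black marks are the group mean ± SD. ENSCAFG00000014752 and ENSCAFG00000031859 are higher in tumours, and ENSCAFG00000014193 and ENSCAFG00000005058 are lower, with every fresh-frozen tumour below every fresh-frozen control for the last 2.

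Calls were counted by segment, without a test of unevenness, beside the shares over all genes given above. Segment 3 (10 to 15 Mb) held 5 lower and 0 higher members of 20 tested in FFPE tissue, and 7 lower and 2 higher of 23 in fresh-frozen tissue. Segment 6 (25 to 30.81 Mb) held 4 higher and 1 lower of 17 in FFPE tissue and 3 higher and 1 lower of 19 in fresh-frozen tissue. Segment 2 (5 to 10 Mb) held 0 higher and 2 lower of 17 in FFPE tissue and 4 higher and 6 lower of 20 in fresh-frozen tissue. Segment 4 (15 to 20 Mb) held 1 higher and 2 lower of 26, and 4 higher and 5 lower of 30. Segment 1 held 0 higher and 2 lower of 11, and 2 higher and 1 lower of 12, and segment 5 (20 to 25 Mb) 1 higher and 1 lower of 18, and 1 higher and 2 lower of 19. Both directions thus occurred in all 6 segments in fresh-frozen tissue. Of the 7 members lower in both preservations, 5 lay between 10472361 and 13602875, a stretch chosen after its values were seen, with 13 members of which 9 were tested. The 9 had log2 fold changes from -1.76 to 0.83 with a median of -0.94 in FFPE tissue, and from -3.11 to 1.65 with a median of -0.995 in fresh-frozen tissue. The stretch was not uniform, for 1 member within it, at 10896128 to 10919000 (11 exons), was higher in fresh-frozen tumours by 1.65 ± 0.33 (SE; edgeR adjusted p = 0.0044).

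Members were also counted by span, in a split at 100 kb that was likewise made after the values were seen and was not tested. Of the 34 tested members of at least 100 kb, 0 were higher and 7 lower in FFPE tissue, with a median log2 fold change of -0.37. In fresh-frozen tissue 36 were tested, and 3 of them were higher and 11 lower (median -0.50). Shorter members were called in both directions, with 6 higher and 6 lower of 75 in FFPE (median 0.06) and 13 higher and 11 lower of 87 in fresh-frozen tissue (median 0.04). Among multi-exon genes under 100 kb on all chromosomes, 995 were higher and 1030 lower of 9884 in FFPE tissue (median 0.05). In fresh-frozen tissue 2105 of these were higher and 1236 lower of 11318 (median 0.13). Among multi-exon genes of at least 100 kb on all chromosomes, 247 were higher and 325 lower of 2364 in FFPE tissue (median -0.07), and 396 higher and 475 lower of 2516 in fresh-frozen tissue (median -0.12). More calls were lower than higher there too. The 52 single-exon genes left out by the rule gave few values, with 8 tested in FFPE (1 higher, 0 lower) and 5 in fresh-frozen tissue (2 higher, 0 lower).

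The members' share of all counts separated the fresh-frozen groups, although the median shift did not. It ran from 0.563% to 0.959% with a median of 0.768% in fresh-frozen tumours (mean 0.779% ± 0.159, SD, n = 6), and from 1.01% to 1.28% with a median of 1.06% in controls (mean 1.09% ± 0.0998, SD, n = 6). Every tumour was below every control, also without the 4 libraries that stood apart, with tumours from 0.563% to 0.959% and controls from 1.01% to 1.08%. Chromosome 36 had the lowest ratio of tumour to control share of the 39 chromosomes, 0.7125, and 4 chromosomes had every fresh-frozen tumour below every control. In FFPE tissue the tumours had 0.577% ± 0.153 (SD, n = 11) and the controls 0.653% ± 0.187 (SD, n = 10), with overlap. The largest half-width of a library's 95% Clopper-Pearson interval was 0.0187 percentage points, counting error only.

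This difference lay mostly in a few abundant genes. The 5 members with the most fresh-frozen counts held 0.154% ± 0.0731 of counts in fresh-frozen tumours and 0.380% ± 0.0468 in controls (SD, n = 6 each). Without them the groups overlapped, at 0.626% ± 0.0978 and 0.714% ± 0.0925. The 5 were picked by their counts in these same libraries, so the narrower gap without them is a description. The most abundant, at 18786073 to 18980993 (16 exons), ran from 38.4 to 459 CPM with a median of 185 in fresh-frozen tumours and from 655 to 1470 CPM with a median of 1400 in controls. Its log2 fold change was -2.58 ± 0.57 in fresh-frozen (SE; edgeR adjusted p = 0.00683) and -1.22 ± 0.47 in FFPE tissue (SE; edgeR adjusted p = 0.0633). Of the other 4, edgeR called 3 lower in fresh-frozen tissue, with log2 fold changes from -1.95 to -0.88, and the member at 28905006 to 28961832 had -0.71 ± 0.33 (SE; edgeR adjusted p = 0.115).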

How the data were processed

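The authors deposited unnormalised fragment counts per gene, made with featureCounts 1.6.0 on CanFam3.1 with Ensembl release 100 gene models, forward strand option 1 and a mapping quality of at least 10, per the file headers. The gene length column, per the file headers, was used for exonic lengths. The submitters' processing notes also name fastp and STAR. Libraries came from a total RNA kit with molecular identifiers, per the labels' protocols, and no source used here says whether reads were collapsed by them.

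Groups and dog numbers came from the labels. The models were fitted with edgeR 4.0.16 under R 4.3.3 (filterByExpr, TMM, robust quasi-likelihood F test, Benjamini-Hochberg at 0.05 over all genes), with separate fits for FFPE, fresh-frozen, the 8 shared dogs (tissue as covariate) and the interaction. The scripts were tested on simulated data. Shifts were tested by exact permutation, with adjustment over 3 tests. Of these, breed and the same-dog correlation are given as descriptions, since tumour shifts had chosen the chromosome. The members and lists were chosen with earlier results of these data known. The 4 identifiers printed are the 2 top and 2 bottom members, ranked on the lesser of both absolute fold changes, among members called with the same sign in both preservations at an average log2 CPM of at least 2. The dog number names the animal in the labels, and deviations over all genes correlated between its 2 libraries at 0.064 to 0.748, above 0.1 in 7 of 8 dogs. Alternatives used DESeq2 1.42.0, limma 3.58.1 voom, other scaling, filters and subsets of libraries. Total counts ran from 406406 to 32584840 per library. No sequence or gene name was used here.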

Additional observations from a re-analysis of the deposited data

Results flagged for a closer look

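In 1 of 21 groups examined for a single distant library, the share of counts in the members had such a value. FFPE control dog 60126 had 1.092% of its counts in the members, where the other 9 FFPE controls ran from 0.365% to 0.705%. It was the deepest library, with 32584840 counts, and its fresh-frozen counterpart had 1.13%. The gap to the nearest control was large relative to the range of the group, and chance gives such a value in about 1 in 20 groups. The part of depth in this value was not tested.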

How the results depend on the processing

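The tumour minus control shift stayed negative under each alternative run, from -0.214 to -0.095 in FFPE and from -0.43 (mean over members) to -0.09 (no filter on low counts) in fresh-frozen tissue. The FFPE minus fresh-frozen shift turned to 0.033 with the mean over members (exact permutation p = 0.602). Leaving out 1 dog at a time, the breed difference ran from -0.059 (without 50416) to 0.268. The same-dog correlation was 0.732 without subtraction of the library median, 0.818 without the 2 farthest dogs and 0.571 without dog 60127, an alternative added after seeing the data, and 0.824 to 0.846 under 3 others. The value of 0.818 rests on the tumours, since the only control left is its own group mean. The FFPE count of 19 members became 37 with limma voom (15 higher, 22 lower), 37 with no filter on low counts (6 higher, 31 lower), 9 without the dogs that also gave fresh-frozen tissue (0 higher, 9 lower) and 1 with age as a covariate, and 18 to 25 under 7 others. The share of all genes called, 21.1%, became 37.9%, 13.4%, 9.52% and 0.737% in the same 4 fits. The fresh-frozen count of 38 became 3 in the dogs that also gave FFPE tissue (fewer libraries) and 23 without the 4 libraries that stood apart (added after seeing the data), and 29 to 54 under 6 others, and the share of all genes called, 30.5%, became 2.47% and 15.2% in those 2 fits. The count of 1 member differing by preservation became 3 with DESeq2, 3 with limma voom, 0 with no filter on low counts and 0 with the stricter filter, and 0 to 2 when 1 dog was left out. The share of all genes called, 2.95%, became 6.73%, 4.32%, 1.52% and 1.21% in the same 4 fits, and 0.976% to 4.41% with 1 dog left out. With the dog as a replicate block the member count was 1, where 3.83% of all genes were called. The interaction called 0 members with the block, so pairing by dog changed no count of called members. The cause of these changes was not tested. The filter passed 109 of 232 members in FFPE and 123 in the deeper fresh-frozen libraries.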
